A study of Homo sapiens with 6 samples.

Results

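The genes described here encode the serine/arginine-rich (SR) splicing factors and the heterogeneous nuclear ribonucleoproteins (hnRNPs). They were taken from the deposited count table as every protein-coding row whose symbol is SRSF followed by a number or begins with HNRNP, a choice made by name and not by measured value. The rule found 34 of the 31582 genes in the table, 12 SRSF genes and 22 HNRNP genes. Of these, 33 had enough reads to be tested; SRSF12 did not pass the filter on low counts, with 2, 2 and 1 reads in the knockdown libraries and 1, 1 and 3 reads in the control libraries. The study sequenced polyadenylated RNA of MDA-MB-231, a human cell line derived from triple-negative breast cancer and mesenchymal in character, with a strand-specific library kit. The CALR knockdown group holds 3 libraries of MDA-MB-231-shCALR cells, in which a short hairpin RNA targets CALR, the gene for the endoplasmic reticulum chaperone calreticulin. The control group holds 3 libraries of MDA-MB-231-NTC cells, labelled non-targeting control. Both lines were grown in the same serum-containing medium and collected below confluence. Separate cultures or infections are not stated for the 3 libraries of either group, so the p-values measure only the spread between these libraries, which may be technical. The labels give neither the number of hairpins nor whether a line is 1 clone.

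SR proteins carry RNA recognition motifs and a tail rich in arginine-serine repeats; they bind exonic enhancers and recruit spliceosome components to nearby splice sites. Their activity and location depend on phosphorylation of that tail by SRPK and CLK kinases. hnRNPs coat nascent transcripts, often repress splice sites, and also act in RNA export, stability and translation. Many genes of both families regulate their own transcripts through exons that introduce an early stop codon and send the RNA to nonsense-mediated decay. The values below are sums over all transcripts of a gene and do not separate such isoforms. Levels are given in CPM, counts scaled to library size after normalization by the trimmed mean of M-values (TMM).

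CALR was lower in every knockdown library, at 493, 66.4 and 110 CPM in knockdown libraries 1, 2 and 3, against 1213, 979 and 926 CPM in the control libraries. These knockdown levels were 47.5%, 6.39% and 10.6% of the control mean, so the library labelled knockdown 1 kept most CALR. The log2 fold change was -2.22 ± 0.64 (SE), with an unadjusted p of 0.00747 and, in edgeR's quasi-likelihood test with Benjamini-Hochberg adjustment, an adjusted p of 0.209. The libraries held 37295097 to 42425310 counted reads in the knockdown group and 34639090 to 40732131 in the control group. Of 16394 genes tested, 0 passed an adjusted p of 0.05 in edgeR (0.0% of genes), 2546 had an unadjusted p under 0.05, and 530 (3.23%) passed the adjusted threshold in DESeq2. The fixed markers of a mesenchymal triple-negative line were all above 1 CPM in every library (8 of 8), and summed to 5768 to 8087 CPM in the knockdown libraries, against 5030 to 5690 CPM in the control libraries. Among them VIM, the intermediate filament vimentin, had 3177, 2491 and 2759 CPM in the knockdown libraries, against 1840, 1839 and 1697 CPM in the control libraries. Of 12 luminal breast markers 7 were above 1 CPM in every library, and ESR1 and TFF1 were below 1 CPM. Of 12 blood markers 1 was, with PTPRC and CD3E below 1 CPM, and of 12 fibroblast and endothelial markers 2 were. Whole-library composition differed among the knockdown libraries. In the lowest decile of transcript GC content, the median difference from the control mean was -0.56, 0.16 and -0.69 on the log2 CPM scale in knockdown libraries 1, 2 and 3; in the highest decile it was 0.15, -0.20 and 0.36. MALAT1, a long nuclear RNA of speckles, was ordered across the knockdown libraries like the low-GC genes, with 81.8, 237 and 48.1 CPM in the knockdown libraries, against 304, 181 and 200 CPM in the control libraries. The part of this composition difference in the values below was not tested, beyond the GC-corrected values given beside some of them.

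The members' fold changes had both signs and most were small; those with the smallest p were HNRNPL, higher in the knockdown libraries, and SRSF11, lower. None of the 33 members passed an adjusted p of 0.05 in edgeR or in DESeq2; edgeR's adjusted p ran from 0.214 to 0.984. At an unadjusted p under 0.05 there were 7 members, 3 higher (9.09% of members, against 8.17% of all genes) and 4 lower (12.1%, against 7.36%). The knockdown and control libraries did not overlap for 13 members. In 10 of these the knockdown libraries were higher (30.3%, against 11.3% of all genes), and in 3 they were lower (9.09%, against 11.2%). These counts are in CPM and depended on the scaling. In the deposited FPKM (fragments per kilobase, scaled to sequencing depth) HNRNPK, HNRNPM, HNRNPD, SRSF2 and SRSF9, all among the 10, had groups that overlapped. HNRNPA0, SRSF5 and SRSF8, which overlapped in CPM, were lower in FPKM without overlap. The median log2 fold change was 0.02 for the 11 tested SR protein genes and 0.08 for the 22 hnRNP genes, beside -0.00 for all genes tested. The sign of both medians depended on the scaling: by library size alone they were -0.10 and -0.05, with the median of all genes at -0.13. Positive fold changes were found for 18 of 33 members (54.5%, against 49.9% of all genes). All 3 knockdown libraries were above the control mean for 12 members and below it for 5 (20.7% of all genes in each direction). Knockdown libraries 1 and 3 were below the control mean and knockdown library 2 above it for 5 members (17.0% of all genes), and the reverse held for 1 member (15.1%). All fold changes of members lay between 0.507-fold and 1.41-fold, and 16 of 33 were within 0.25 of zero on the log2 scale. In bulk RNA, fewer cells that express a gene and less of its RNA per cell cannot be told apart.

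**Figure D1:**
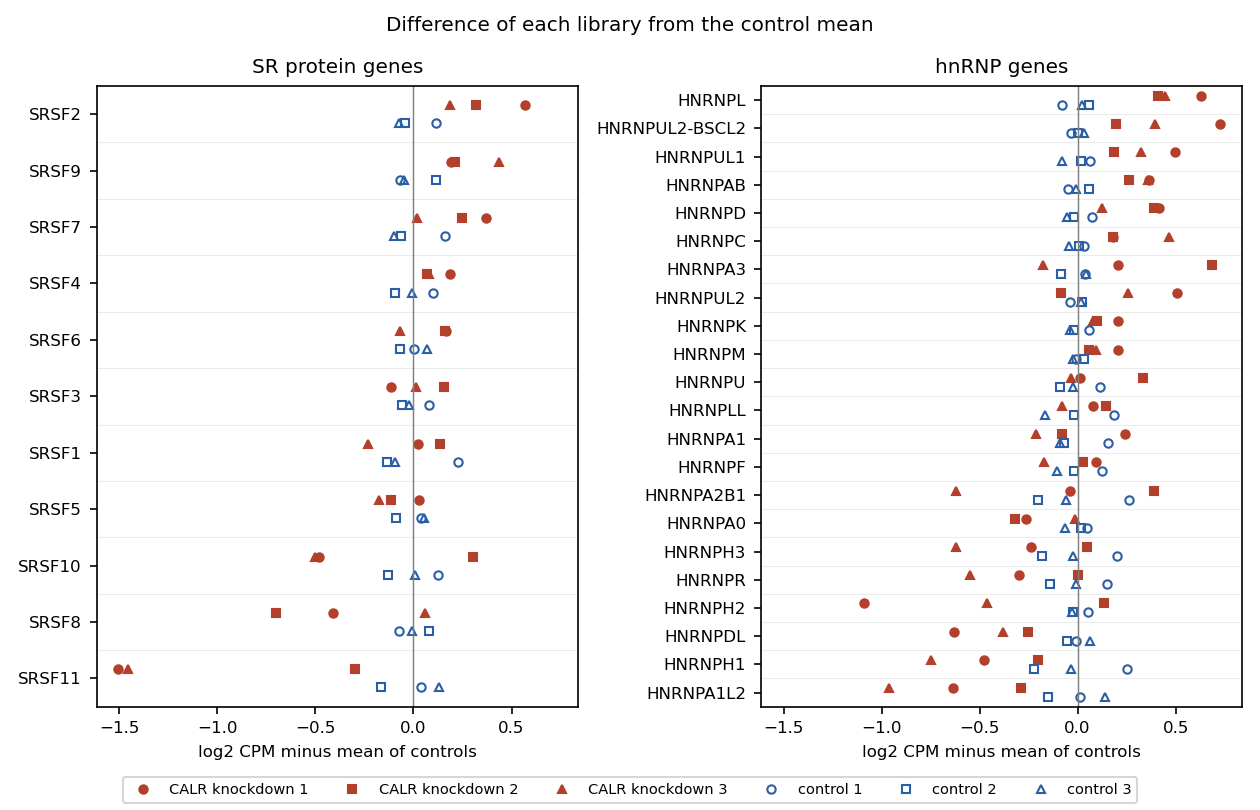
Log2 CPM of each library minus the mean of the 3 controls (x axis) for the 11 tested SR protein genes and the 22 hnRNP genes (y axis), ordered by fold change. Filled red symbols are the 3 CALR knockdown libraries and open blue symbols the 3 control libraries. HNRNPL, at the top of the hnRNP panel, has all knockdown symbols right of the controls, and SRSF11, at the bottom of the SR panel, has knockdown libraries 1 and 3 far to the left of knockdown library 2.

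The 3 knockdown libraries were less alike than the 3 controls. The standard deviation of log2 CPM was larger in the knockdown group for 30 of 33 members (90.9%, against 82.6% of all genes), with a median of 0.187 in the knockdown group and 0.0779 in the control group. Knockdown library 2, which had the least CALR, was the highest of the knockdown libraries for 14 members and knockdown library 1 for 15. Knockdown library 3 was the lowest of them for 18 members.

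SRSF11 had the largest fold change of the SR protein genes in either direction. It encodes an arginine-serine protein of nuclear speckles, also known as p54 (ENSG00000116754.13, GRCh38 chromosome 1, 70205682 to 70253052, plus strand). SRSF11 had 34.6, 79.8 and 35.8 CPM in the knockdown libraries, against 101, 87.5 and 108 CPM in the control libraries. All knockdown values lay below all control values, but knockdown library 2 was much nearer to the controls than the other two. The log2 fold change was -0.98 ± 0.32 (SE, n = 3 each; unadjusted p 0.0130, adjusted p 0.226 in edgeR). After correction for GC content it was -0.82 ± 0.20, with an adjusted p of 0.114. The call depended on library 2 and on the filter: without knockdown library 2 SRSF11 was at -1.48 (adjusted p 0.0150 in edgeR), and it ran to -0.77 when other single libraries were left out. With no low-count filter its adjusted p in edgeR was 0.000952, and SRSF11 was then the 1 member called, among 3.13% of all genes.

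SRSF10 and SRSF8 also had negative fold changes, with groups that overlapped. SRSF10, a splicing repressor when dephosphorylated, had 81.5, 141 and 80.4 CPM in the knockdown libraries, against 124, 104 and 114 CPM in the control libraries. Its knockdown libraries 1 and 3 were below every control and knockdown library 2 above every control, so the log2 fold change was only -0.18 ± 0.23. Without knockdown library 2 it was -0.49 with an adjusted p of 0.0474 in edgeR; leaving out other libraries gave values up to -0.02, and after GC correction it was 0.03. SRSF8, an SRSF2-like gene that arose as a retrotransposed copy, had 26.6, 21.7 and 36.8 CPM in the knockdown libraries, against 33.6, 37.4 and 35.1 CPM in the control libraries. Here knockdown library 3 was within the controls and the other knockdown libraries below them. The ratio of SRSF10 to SRSF11 in FPKM was 1.58 ± 0.236 in the knockdown libraries and 0.864 ± 0.0650 in the control libraries (SD, n = 3 each). The ratios of the groups did not overlap; this pair, like the other ratios below, was chosen after the values were seen. Of 10 such ratios between related genes 5 did not overlap between the groups and 5 did.

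The 8 classical SR proteins had small differences, with a median log2 fold change of 0.10 and a range of -0.09 to 0.36. SRSF2, a speckle protein that is recurrently mutated in myeloid malignancies, had 220, 184 and 168 CPM in the knockdown libraries, against 160, 143 and 141 CPM in the control libraries. Every knockdown library was above every control (log2 fold change 0.36 ± 0.16, unadjusted p 0.0516, adjusted p 0.325 in edgeR). SRSF9, a close relative of SRSF1, had 334, 338 and 395 CPM in the knockdown libraries, against 279, 316 and 283 CPM in the control libraries, again without overlap (log2 fold change 0.28 ± 0.15). Some reads of both genes may belong to neighbours: 36.7% of the exonic bases of SRSF2 are also annotated on the opposite strand as MFSD11, and 46.2% of those of SRSF9 as GATC, and the sources used here do not give the strand setting of the authors' counting.

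For the other classical members the groups overlapped. SRSF7, which also adapts mRNA for export, had 115, 106 and 90.1 CPM in the knockdown libraries, against 99.5, 85.1 and 83.2 CPM in the control libraries. SRSF3, the shortest classical SR protein, had 242, 292 and 264 CPM in the knockdown libraries, against 276, 251 and 258 CPM in the control libraries. SRSF1, the founding member, had 148, 161 and 125 CPM in the knockdown libraries, against 172, 133 and 137 CPM in the control libraries. In SRSF3 and SRSF1 the knockdown libraries lay on both sides of the control mean, with log2 fold changes of 0.02 ± 0.15 and -0.03 ± 0.17. SRSF1 shares 56.6% of its exonic bases with AC015813.2 on the same strand, so its count is uncertain. SRSF4, SRSF5 and SRSF6, which each carry a pair of RNA recognition motifs, had log2 fold changes of 0.11, -0.09 and 0.09.

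Levels of different genes can be compared per length, in the deposited FPKM values (fragments per kilobase, scaled to sequencing depth). SRSF9 was highest, at 265 ± 16.4 FPKM in the knockdown libraries and 238 ± 19.6 FPKM in the control libraries (SD, n = 3 each). Among the control libraries HNRNPK followed with 188 ± 1.66 FPKM, then HNRNPA2B1 with 163 ± 23.7, HNRNPA1 with 153 ± 10.6, HNRNPAB with 139 ± 7.99, HNRNPD with 109 ± 2.02 and HNRNPC with 97.0 ± 1.05. The ranges of HNRNPK, HNRNPA2B1 and HNRNPA1 overlapped from each gene to the next; those of SRSF9, HNRNPA1, HNRNPAB, HNRNPD and HNRNPC did not overlap with the gene below. At the low end were HNRNPUL2, HNRNPLL and HNRNPA1L2, with 7.86, 6.41 and 2.30 FPKM in the control libraries. SRSF12 was last, at 0.01 to 0.02 FPKM in the control libraries. Of the 33 pairs of neighbours in the control order, 17 overlapped. HNRNPH1 stood at rank 17 in the knockdown libraries and at rank 11 in the control libraries, and HNRNPL at rank 14 in the knockdown libraries and 19 in the control libraries.

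**Figure D2:**
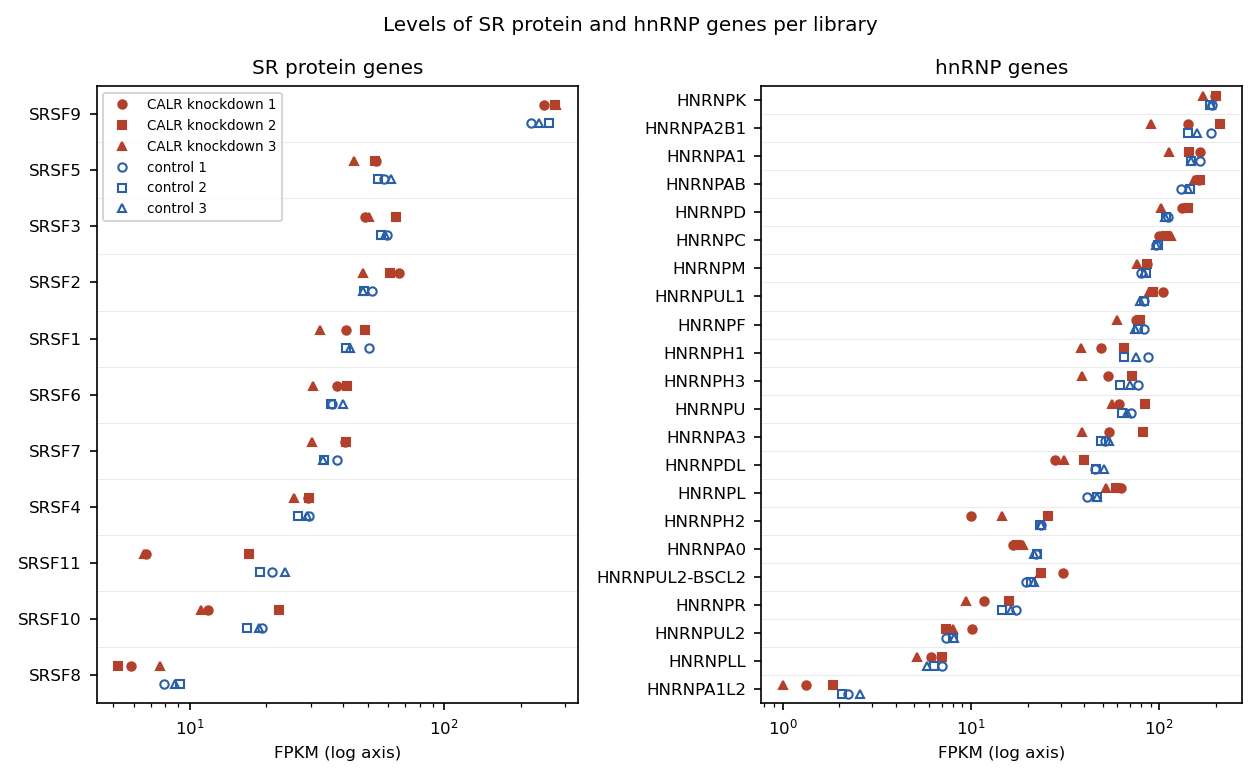
Deposited FPKM per library on a log axis (x axis) for 11 SR protein genes and 22 hnRNP genes (y axis), ordered by control mean; SRSF12, at 0.01 to 0.02 FPKM, is left out. Filled red symbols are the CALR knockdown libraries and open blue symbols the control libraries; levels span from about 1 FPKM for HNRNPA1L2 to above 200 FPKM for SRSF9.

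Summed over each family, the differences were within the spread. The SR protein genes together had 1666, 1762 and 1599 CPM in the knockdown libraries, against 1686, 1566 and 1604 CPM in the control libraries. The hnRNP genes together had 6616, 6789 and 5925 CPM in the knockdown libraries, against 6472, 5823 and 5891 CPM in the control libraries. Both families overlapped between the groups. The log2 ratio of the sums was 0.05 for the SR protein genes and 0.09 for the hnRNP genes.

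HNRNPL had the smallest p of all members. It binds CA-rich repeats and controls exons in many transcripts (ENSG00000104824.16, GRCh38 chromosome 19, 38836388 to 38852347, minus strand). HNRNPL had 178, 153 and 157 CPM in the knockdown libraries, against 109, 120 and 117 CPM in the control libraries. The groups were well separated, with knockdown library 1 the highest of all 6. The log2 fold change was 0.50 ± 0.15 (1.41-fold, SE, n = 3 each; unadjusted p 0.00845, adjusted p 0.214 in edgeR). It was 0.40 after GC correction and ran from 0.43 to 0.54 when any 1 library was left out; without knockdown library 2 its adjusted p was 0.0320. HNRNPLL, a paralog known for CD45 splicing in lymphocytes, had 35.1, 36.8 and 31.5 CPM in the knockdown libraries, against 37.8, 32.8 and 29.6 CPM in the control libraries. These groups overlapped throughout (log2 fold change 0.04 ± 0.17, or 0.31 after GC correction). The ratio of HNRNPL to HNRNPLL in FPKM was 9.60 ± 1.02 in the knockdown libraries and 7.07 ± 1.10 in the control libraries (SD), with no overlap. This ratio is not corrected for GC content, and after that correction the log2 fold changes lay closer together, at 0.40 and 0.31.

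HNRNPD and HNRNPDL, paralogs that lie near each other on chromosome 4, had fold changes of opposite sign. HNRNPDL encodes a nuclear RNA-binding protein mutated in a form of limb-girdle muscular dystrophy (ENSG00000152795.17, GRCh38, 82422564 to 82430408, minus strand). HNRNPDL had 168, 218 and 200 CPM in the knockdown libraries, against 259, 251 and 272 CPM in the control libraries. All 3 knockdown libraries were below all 3 controls, with a log2 fold change of -0.41 ± 0.16 (unadjusted p 0.0276, adjusted p 0.272 in edgeR). HNRNPD, known as AUF1 and as a binder of AU-rich elements that promotes mRNA decay (ENSG00000138668.18, GRCh38, 82352498 to 82374503, minus strand), had 458, 449 and 373 CPM in the knockdown libraries. It had 361, 339 and 330 CPM in the control libraries, so the knockdown libraries were all higher (log2 fold change 0.31 ± 0.15, unadjusted p 0.0719, adjusted p 0.361 in edgeR). After GC correction the values were -0.31 for HNRNPDL and 0.39 for HNRNPD. The ratio of HNRNPD to HNRNPDL in FPKM was 4.75, 3.59 and 3.26 in the knockdown libraries, against 2.43, 2.36 and 2.12 in the control libraries.

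HNRNPAB, the third gene of this type, had 346, 322 and 345 CPM in the knockdown libraries, against 259, 280 and 267 CPM in the control libraries. It encodes an hnRNP that binds AU-rich and CArG-like sequences. The knockdown libraries were all higher, with a log2 fold change of 0.33 ± 0.14 (unadjusted p 0.0450, adjusted p 0.313 in edgeR); it was 0.21 after GC correction. Without knockdown library 2, HNRNPDL passed the adjusted threshold (-0.50, adjusted p 0.0447; -0.31 at the other end of the leave-one-out range), and HNRNPAB and HNRNPD did not (adjusted p 0.0713 and 0.184).

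The upstream sequences of HNRNPDL, HNRNPD and HNRNPH2 are shown because they are the members with the smallest p among those whose 250 bases before the start held either motif searched. The motifs were the E-box CACGTG, bound by MYC and MAX, and the ETS-type CCGGAAG (or CTTCCGG on the other strand). The bases come from the RefSeq promoter table for GRCh38.p14, which matched 32 of the 34 members (SRSF2 and HNRNPA1 were not matched). Each window runs from 250 bases before a start in that table to the last base before it, on the gene's strand. Motif matches are in capitals. The windows are at chr4:82430226-82430475 (minus strand) for HNRNPDL, chr4:82373992-82374241 (minus strand) for HNRNPD and chrX:101407972-101408221 (plus strand) for HNRNPH2. For these genes the RefSeq start differs from the start in the GENCODE coordinates given for genes here. In those coordinates the HNRNPD window lies wholly inside the gene (82352498 to 82374503). The HNRNPDL window lies partly inside its gene (82422564 to 82430408), and its E-box is in that part. The motif matches of HNRNPD and HNRNPDL are therefore upstream of the RefSeq start only. The HNRNPH2 window lies before its gene, which starts at 101408295.
HNRNPDL: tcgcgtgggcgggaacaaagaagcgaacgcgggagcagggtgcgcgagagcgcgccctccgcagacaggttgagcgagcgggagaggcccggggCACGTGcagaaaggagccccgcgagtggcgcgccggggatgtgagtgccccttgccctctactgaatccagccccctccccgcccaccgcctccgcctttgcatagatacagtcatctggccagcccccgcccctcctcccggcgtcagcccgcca
HNRNPD: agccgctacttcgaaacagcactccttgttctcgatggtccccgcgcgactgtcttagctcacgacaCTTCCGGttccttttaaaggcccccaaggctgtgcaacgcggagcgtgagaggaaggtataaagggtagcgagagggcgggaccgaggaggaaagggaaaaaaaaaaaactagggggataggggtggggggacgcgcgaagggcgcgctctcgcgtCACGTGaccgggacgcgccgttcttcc
HNRNPH2: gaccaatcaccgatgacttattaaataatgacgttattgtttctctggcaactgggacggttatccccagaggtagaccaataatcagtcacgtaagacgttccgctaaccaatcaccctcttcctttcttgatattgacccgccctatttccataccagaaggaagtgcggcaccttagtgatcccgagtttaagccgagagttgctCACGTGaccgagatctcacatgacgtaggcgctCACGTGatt
HNRNPDL has 1 E-box, HNRNPD an E-box and an ETS-type match, and HNRNPH2 a pair of E-boxes. The E-box was found in 6 of 32 members (18.8%), against 7.73% of all 27305 genes searched, and the ETS-type motif in 5 of 32 (15.6%), against 10.2%. Some genes have more than 1 start. Per start, the shares were 15.2% against 6.34% for the E-box and 10.9% against 8.52% for the ETS-type motif. The genes searched outnumber the 16394 tested, so they are not matched to the members in expression, and enrichment was not tested. The 6 members with an E-box were HNRNPA3, HNRNPD, HNRNPDL, HNRNPH2, HNRNPH3 and HNRNPM, whose fold changes had both signs. MYC had 173, 126 and 219 CPM in the knockdown libraries, against 264, 318 and 307 CPM in the control libraries (log2 fold change -0.78 ± 0.22, adjusted p 0.200 in edgeR). The motifs are descriptions of the sequence, and the part of MYC in the members' values was not tested.

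The 4 genes of the F and H type, which bind runs of G, had a median log2 fold change of -0.32 and groups that overlapped in each. The median was -0.14 after GC correction, and it ran from -0.52 without knockdown library 2 to -0.19 without knockdown library 1. HNRNPH1 had 207, 250 and 171 CPM in the knockdown libraries, against 343, 246 and 281 CPM in the control libraries. Knockdown library 2 was just above the lowest control, and the log2 fold change was -0.47 ± 0.20 (unadjusted p 0.0412, adjusted p 0.304 in edgeR). HNRNPH2 had 25.1, 58.7 and 38.9 CPM in the knockdown libraries, against 55.5, 52.7 and 52.6 CPM in the control libraries. The controls lay close together while the knockdown libraries spread to both sides of them, with a log2 fold change of -0.39 ± 0.28. HNRNPH2 shares 16.3% of its exonic bases with RPL36A-HNRNPH2 on the same strand, so the assignment of some of its reads is uncertain. Without knockdown library 2, HNRNPH1 and HNRNPH2 both passed the adjusted threshold, at -0.61 (adjusted p 0.0498) and -0.74 (adjusted p 0.0432). Over all single libraries left out HNRNPH1 ran from -0.61 to -0.33 and HNRNPH2 from -0.74 to -0.13; without knockdown library 1, HNRNPH2 had an adjusted p of 0.845 in edgeR. After GC correction HNRNPH1 was -0.42 and HNRNPH2 -0.24. HNRNPH3 had a log2 fold change of -0.25 ± 0.20, or -0.03 after GC correction, and HNRNPF of -0.01 ± 0.15. The ratio of HNRNPF to HNRNPH1 in FPKM was 1.43 ± 0.190 in the knockdown libraries and 1.04 ± 0.133 in the control libraries (SD), without overlap.

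The abundant A/B-type hnRNPs, which bind exonic silencers, had means close to the controls but wide spread in the knockdown group. HNRNPA1 had 791, 633 and 578 CPM in the knockdown libraries, against 746, 639 and 630 CPM in the control libraries. HNRNPA2B1 had 598, 805 and 400 CPM in the knockdown libraries, against 737, 534 and 590 CPM in the control libraries. For both genes the knockdown range covered the whole control range, with log2 fold changes of -0.01 ± 0.18 and -0.05 ± 0.26. HNRNPA3 had 367, 512 and 281 CPM in the knockdown libraries, against 327, 301 and 328 CPM in the control libraries. Its log2 fold change was 0.28 ± 0.22 and, after GC correction, 0.50 ± 0.13 with an adjusted p of 0.120 in edgeR; without knockdown library 2 it was 0.03. HNRNPA1L2, a retrotransposed relative of HNRNPA1, had 4.51, 5.76 and 3.60 CPM in the knockdown libraries, against 7.12, 6.34 and 7.77 CPM in the control libraries. All its knockdown values were lower (log2 fold change -0.61 ± 0.25, unadjusted p 0.0364, adjusted p 0.291 in edgeR), but its near-identity to HNRNPA1 makes the assignment of its reads uncertain. HNRNPA0, which binds AU-rich elements, had a log2 fold change of -0.19 ± 0.15, and 0.07 after GC correction.

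HNRNPC, HNRNPK and HNRNPM were higher in all 3 knockdown libraries on the TMM-scaled CPM. HNRNPC, which binds uridine tracts and keeps Alu-derived exons out of transcripts, had 706, 705 and 861 CPM in the knockdown libraries, against 638, 626 and 604 CPM in the control libraries. Knockdown library 3 stood above the other two, and the log2 fold change was 0.28 ± 0.16 (adjusted p 0.404 in edgeR). HNRNPK, a binder of C-rich stretches, had 676, 628 and 620 CPM in the knockdown libraries, against 611, 579 and 572 CPM in the control libraries. HNRNPM, which regulates exons of CD44 and other transcripts in breast cells, had 263, 238 and 244 CPM in the knockdown libraries, against 227, 233 and 225 CPM in the control libraries. The last pair differed by little, with log2 fold changes of 0.13 ± 0.14 and 0.12 ± 0.14. By library size alone HNRNPK and HNRNPM were at -0.0055 and -0.013, where the median of all genes was -0.13. After GC correction they were at 0.31 and 0.0058. In FPKM the groups of both genes overlapped. HNRNPR had 104, 129 and 87.6 CPM in the knockdown libraries, against 142, 117 and 128 CPM in the control libraries, and its groups overlapped (log2 fold change -0.27 ± 0.18).

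The U-type genes all had positive fold changes. HNRNPUL1, linked to the DNA damage response, had 492, 397 and 437 CPM in the knockdown libraries, against 365, 353 and 330 CPM in the control libraries. The groups did not overlap (log2 fold change 0.34 ± 0.15, unadjusted p 0.0547, adjusted p 0.332 in edgeR), and it was 0.20 after GC correction. HNRNPU, a chromatin-bound scaffold protein, had 415, 518 and 401 CPM in the knockdown libraries, against 446, 386 and 405 CPM in the control libraries. Its groups overlapped, with a log2 fold change of 0.11 ± 0.16, or 0.39 after GC correction. HNRNPUL2-BSCL2 is an annotated readthrough whose exonic bases all overlap HNRNPUL2 or BSCL2 on the same strand, so its reads cannot be assigned with certainty. The row had 140, 96.9 and 111 CPM in the knockdown libraries, against 82.8, 84.7 and 86.5 CPM in the control libraries (log2 fold change 0.46 ± 0.17, adjusted p 0.274 in edgeR). HNRNPUL2 itself had 58.3, 38.7 and 49.0 CPM in the knockdown libraries, against 40.0, 41.7 and 41.6 CPM in the control libraries, with overlap.

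The members are poor in GC, and their fold changes varied with GC content. Their median transcript GC content was 44.1%, against 48.8% for all genes tested, and 26 of 33 were below that median. Across the 33 members Pearson's r between log2 fold change and GC content was 0.51, beside 0.21 across all genes tested. This was not particular to the members. Of the related lists below, r was 0.91 for kinases, phosphatases and importers, 0.72 for the core spliceosome and 0.63 for SR-like and other hnRNP-type genes. It was 0.58 for nonsense-mediated decay factors, 0.54 for other splicing regulators and 0.12 for nuclear-retained and mitochondrial transcripts. These are correlations across genes of the same libraries, which are not independent replicates. By library, r across the members was 0.56, 0.08 and 0.53 in knockdown libraries 1, 2 and 3, against -0.43, 0.50 and -0.02 in control libraries 1, 2 and 3. Control library 2 thus had an r near that of knockdown libraries 1 and 3, but r does not measure the size of a shift. Over all genes in the lowest GC decile, the median difference from the control mean was -0.10 in control library 2. It was -0.56 and -0.69 in knockdown libraries 1 and 3. All 7 members with at least 50% GC had positive fold changes, against 5 of the 11 members with at most 42%. The 7 include both HNRNPUL2 and HNRNPUL2-BSCL2, which share exonic bases. Over all genes tested, the median log2 fold change was 0.11 to 0.20 in GC bins with a median GC content of 50.9% or more. It was -0.35 to -0.19 in bins with a median of 41.4% or less. The share of all genes with positive fold changes at these GC levels was not counted. With the GC trend removed from each library, 10 members had an unadjusted p under 0.05 in edgeR, 6 higher (against 9.58% of all genes) and 4 lower (against 8.64%). The higher ones were HNRNPA3, HNRNPL, HNRNPD, HNRNPU, SRSF7 and HNRNPC, and the lower ones SRSF11, HNRNPA1L2, HNRNPH1 and HNRNPDL. No member passed the adjusted threshold in that fit.

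**Figure D3:**
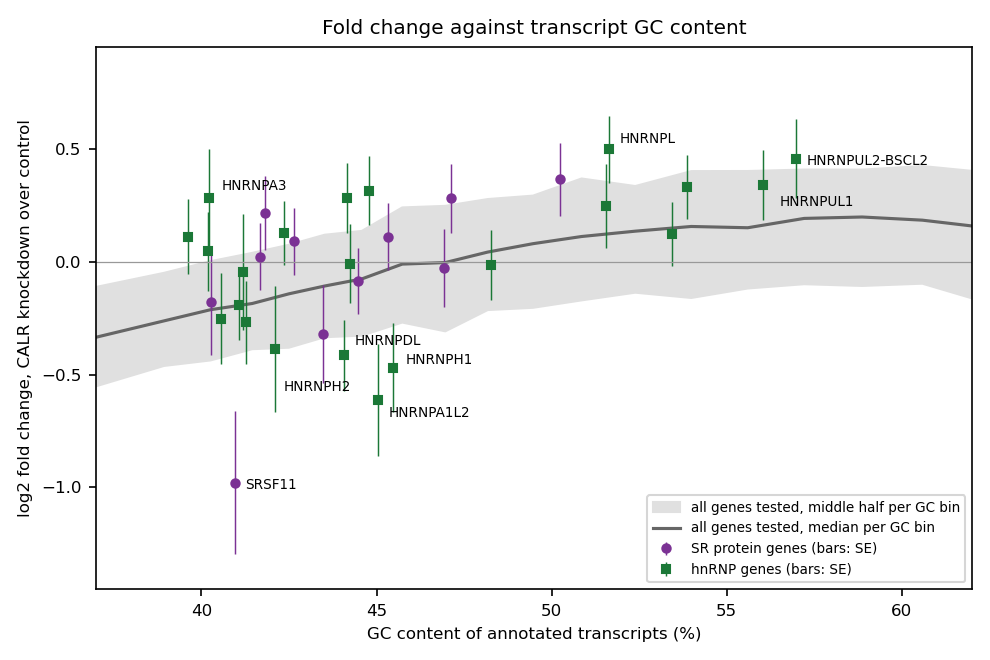
Log2 fold change, CALR knockdown over control (y axis), against the GC content of annotated transcripts in percent (x axis) for SR protein genes (purple circles) and hnRNP genes (green squares), with bars of 1 SE. The line is the median of all genes tested in each of 20 GC bins and the band spans their quartiles; SRSF11, at -0.98, lies far below the band, and HNRNPL, at 0.50, above it.

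Leaving out knockdown library 2 changed the number of calls most. In that fit 7 members passed the adjusted threshold in edgeR, 2 higher (HNRNPL and HNRNPUL2-BSCL2; 7.76% of all genes) and 5 lower (HNRNPDL, HNRNPH1, HNRNPH2, SRSF10 and SRSF11; 7.75%). Knockdown library 2 is also the library with the lowest CALR level and the one whose low-GC genes were not below the controls; the part of that difference in these calls was not tested.

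Genes that act with these families were examined as lists. The core spliceosome had 46 genes tested, a median log2 fold change of 0.16, and 6 higher and 1 lower with an edgeR p under 0.05 before adjustment (13.0% higher, against 8.17% of all genes, and 2.17% lower, against 7.36%). Its knockdown and control libraries did not overlap for 17 of 46 genes (22.5% of all genes), and 15 of these were higher (32.6%, against 11.3%). SNRNP70, a core protein of the U1 particle, had 219, 244 and 255 CPM in the knockdown libraries, against 170, 183 and 165 CPM in the control libraries (log2 fold change 0.47 ± 0.15, adjusted p 0.221 in edgeR). Every knockdown library was above every control, and the same held for SF3B3 (0.45), EFTUD2 (0.46) and PRPF31 (0.48), which serve the U2 and U5 particles and the tri-snRNP. The median GC content of this list was 49.3%.

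The kinases, phosphatases and importers that handle SR proteins had a median log2 fold change of -0.16 over 17 genes tested, and 3 had an edgeR p under 0.05 before adjustment, 1 of them higher (17.6%, against 15.5% of all genes). The median was -0.07 after GC correction, -0.35 without knockdown library 2 and -0.06 without knockdown library 3, and Pearson's r between fold change and GC content across these genes was 0.91. CLK1, a nuclear kinase of the arginine-serine tail, had 44.3, 45.9 and 37.9 CPM in the knockdown libraries, against 62.1, 53.6 and 67.6 CPM in the control libraries. Its log2 fold change was -0.52 ± 0.17 (adjusted p 0.227 in edgeR) and -0.16 after GC correction. SRPK2, the related cytoplasmic kinase, had 30.2, 39.8 and 28.8 CPM in the knockdown libraries, against 42.9, 46.6 and 48.2 CPM in the control libraries (log2 fold change -0.48 ± 0.18, adjusted p 0.276). In both kinases the groups did not overlap.

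Among 28 SR-like and other hnRNP-type genes tested, the median was 0.04. An edgeR p under 0.05 before adjustment was found for 2 of them, 1 higher and 1 lower (7.14%, against 15.5% of all genes). The lower one was PTBP3. PTBP3, a polypyrimidine tract binding protein, had 33.9, 45.5 and 23.0 CPM in the knockdown libraries, against 83.6, 71.1 and 79.8 CPM in the control libraries. The separation was wide, with a log2 fold change of -1.19 ± 0.25, an adjusted p of 0.149 in edgeR, and -0.88 after GC correction.

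The nonsense-mediated decay factors had a median of 0.04 (-0.01 after GC correction) over 19 genes tested. At an unadjusted p under 0.05 in edgeR there were 2 (10.5%, against 15.5% of all genes). These were UPF3B, lower (log2 fold change -0.84 ± 0.30), and SMG5, higher (0.47 ± 0.20). Their adjusted p was 0.254 and 0.302. Both had groups that did not overlap; for SMG5 the lowest knockdown value was 187 CPM, against a highest control value of 174 CPM. The 28 other splicing regulators tested had a median of 0.01, and 5 of them had groups that did not overlap (17.9%, against 22.5% of all genes). At an unadjusted p under 0.05 there were 0 in edgeR, 1 in DESeq2 and 0 in limma-voom. The nuclear-retained and mitochondrial transcripts had a median of -0.09 over 15 genes tested. In edgeR, 1 gene had p under 0.05 before adjustment (6.67%, against 15.5% of all genes). This was NEAT1, the paraspeckle RNA, at 160, 321 and 125 CPM in the knockdown libraries, against 556, 319 and 422 CPM in the control libraries.

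**Figure D4:**
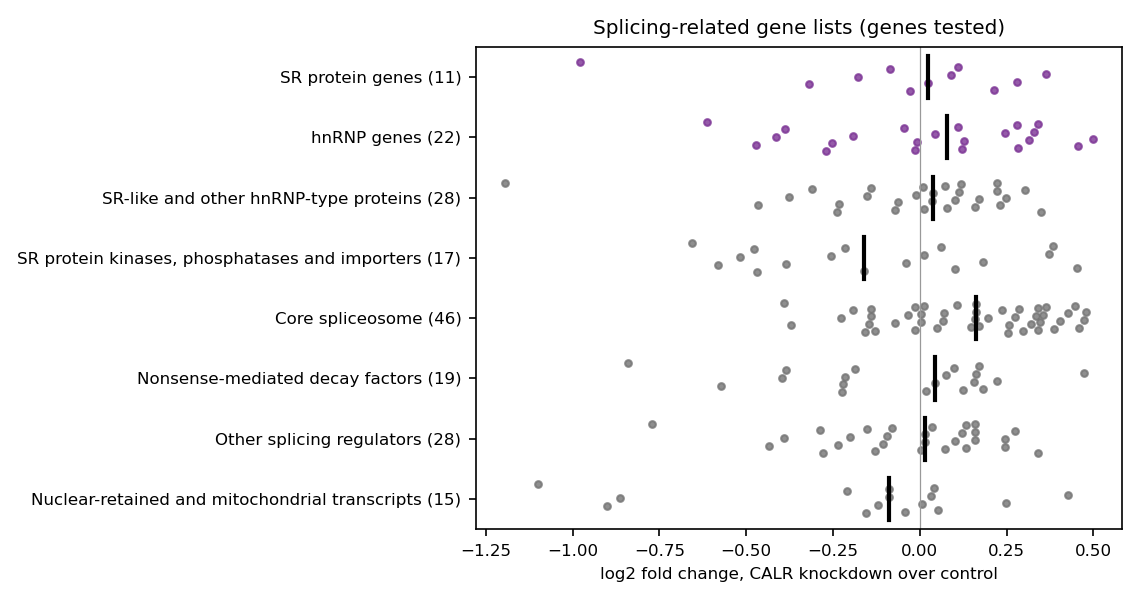
Log2 fold change, CALR knockdown over control (x axis), of each tested gene in the 2 families (purple) and 6 related lists (grey), with the number tested in brackets and a black bar at each median. The medians lie between -0.16, for the kinases, phosphatases and importers, and 0.16, for the core spliceosome, and the SR protein and hnRNP medians are 0.02 and 0.08.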

How the data were processed

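The deposited tables give, per gene and library, read counts made by the authors and, in a second table, FPKM values normalized by the authors for length and depth. Per the submitters' processing notes, FastQC 0.9.5 and TopHat2 were used with GRCh38; how reads were counted, on which strand and with which annotation release is not given in the sources used here. Counts were fitted with edgeR 4.0.16 (R 4.3.3): filterByExpr, TMM, quasi-likelihood F test of 3 knockdown against 3 control libraries, Benjamini-Hochberg adjustment over all 16394 genes tested. CPM are TMM-scaled, and log2 CPM used a prior count of 2. The fit was tested on simulated data. The simulated counts had the same spread setting for every gene and no GC trend, unlike these libraries. FPKM were used for levels and ratios, and in limma 3.58.1 on log2(FPKM + 1) and log2(FPKM + 0.1) as alternatives; DESeq2 1.42.0 was another. Coordinates, GC content and overlaps come from GENCODE 29, which matched 30871 of 31582 gene IDs. The GC correction subtracts a loess curve (span 0.3) per library. A p of 0.05 was the threshold. With 3 libraries a group an exact permutation test cannot go below 0.1, so none is given.

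All members were eligible to be named, those with p under 0.05 and groups that do not overlap in full, and from each related list up to 4 genes of that kind by smallest p; a gene that this rule names is not reported here. Members and lists were chosen with earlier results of these data known. No 2 libraries of the same group agreed within sampling noise.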

Additional observations from a re-analysis of the deposited data

How the results depend on the processing

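Of 561 values of single members under alternatives, 515 kept their direction and side of the adjusted threshold, 8 passed it anew and 38, over 13 genes, changed sign. Genes past the adjusted threshold (0) numbered 988 with no low-count filter, 4 with the GC correction, 530 in DESeq2, and 0 to 2604 when 1 library was left out. Members past it (0) numbered 1 with no filter and 0 to 7 with 1 library left out. SR protein genes with p under 0.05 (1) numbered 2 with DESeq2 size factors, library size alone, GC correction, DESeq2 and both FPKM scales, and 0 to 4 with 1 library left out. hnRNP genes (6) numbered 3 with no filter and 1 to 12 with 1 library left out: 1 without knockdown library 1, control library 1 or control library 3, 2 without control library 2 and 12 without knockdown library 2. Genes of the related lists (14) numbered 1 to 60 with 1 library left out. The SR median (0.02) was 0.17 with the GC correction, and with library size alone or log2(FPKM + 1) or log2(FPKM + 0.1) it was -0.10, -0.10 and -0.11; the hnRNP median (0.08) was -0.046, -0.042 and -0.048, where the median of all genes was -0.13, -0.08 and -0.11. The log2 ratio of summed CPM was -0.078 (SR) and -0.038 (hnRNP) by library size alone, and -0.039 for hnRNP FPKM. The replicate block gave 1 hnRNP gene with p under 0.05. With the GC correction added it gave 16 genes past the adjusted threshold, 2 SR protein genes with p under 0.05 and an SR median of 0.17. Deviations of same-numbered libraries from their group means correlated at 0.20, -0.12 and -0.22, and those of knockdown library 2 and control library 3 at 0.36. With 3 libraries a group these values cannot settle whether the numbers pair the samples, and the labels do not say. The cause of these shifts was not tested.

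Signs also changed for single members. In the main fit most of these were near zero, but HNRNPA0 was at -0.19 and SRSF10 at -0.18. With the GC correction HNRNPA0 was 0.066 (block added, 0.027), HNRNPA2B1 0.14 (0.13), HNRNPA1 0.092 (0.082), SRSF10 0.035 (0.032) and SRSF5 0.0074 (0.0039). On log2(FPKM + 1) HNRNPM was -0.0044, HNRNPU -0.020, HNRNPLL -0.064, SRSF4 -0.013, SRSF6 -0.037 and SRSF3 -0.10. With 1 library left out the ranges were -0.0095 to 0.20 for HNRNPU, -0.034 to 0.14 for HNRNPLL, -0.31 to 0.19 for HNRNPA2B1, -0.068 to 0.076 for HNRNPF, -0.15 to 0.10 for HNRNPA1, -0.11 to 0.10 for SRSF1 and -0.046 to 0.089 for SRSF3. With DESeq2 size factors, DESeq2 and no filter HNRNPF was 0.00058, 0.00058 and 0.0024 and HNRNPA1 0.0060, 0.0060 and 0.0085. SRSF3 was -0.014 with at least 1 CPM in all libraries and -8.9e-05 on log2(FPKM + 0.1) relative to the median gene.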

Other observations

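Of the 39 rows of these names that are not protein-coding, 38 are pseudogenes. HNRNPA1P33, a processed pseudogene of HNRNPA1 on chromosome 10, had 38, 31 and 29 reads in the knockdown libraries, against 185, 104 and 134 reads in the control libraries. Its log2 fold change was -2.04 ± 0.34 (SE, n = 3 each), with an adjusted p of 0.145 in edgeR, while HNRNPA1 itself was at -0.01. The groups did not overlap. Summed over 21 HNRNPA1 pseudogenes, the reads were 0.989%, 1.51% and 1.25% of the HNRNPA1 count in the knockdown libraries, against 1.95%, 1.74% and 1.78% in the control libraries. This sum includes HNRNPA1P33 and its difference. Others among them with many reads had groups that overlapped: HNRNPA1P48 at -0.54, HNRNPA1P7 at 0.82, HNRNPA1P16 at 0.06 and HNRNPA1P10 at 0.15. As for HNRNPA1L2, the assignment of reads to such copies is uncertain.

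HNRNPU-AS1, annotated as antisense, had 9.91, 28.4 and 6.14 CPM in the knockdown libraries, against 15.6 to 24.98 CPM in the control libraries. Knockdown library 2 was the highest of all 6 and the other knockdown libraries the lowest, with a log2 fold change of -0.45 ± 0.49. It had no match in GENCODE 29, so its overlap with other genes was not checked.

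Within the hnRNP family, the share of summed FPKM taken by HNRNPD was 8.48%, 8.24% and 7.83% in the knockdown libraries, against 6.98% to 7.23% in the control libraries. HNRNPL took 4.03%, 3.42% and 4.02% in the knockdown libraries, against 2.57%, 3.12% and 3.02% in the control libraries. HNRNPH1 took 3.15%, 3.77% and 2.95% in the knockdown libraries, against 5.45%, 4.32% and 4.90% in the control libraries. None of these shares overlapped between the groups; they were chosen after the values were seen. Within the SR family, SRSF11 took 1.15%, 2.59% and 1.17% in the knockdown libraries, against 3.55%, 3.15% and 3.94% in the control libraries.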
